A study of Mus musculus with 8 samples.

Results

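The genes described here are 10 transcription factor genes of the naive pluripotency network, Klf2, Klf4, Klf5, Esrrb, Nr5a2, Nr0b1, Tfcp2l1, Tbx3, Gbx2 and Zfp42. They were chosen by the gene name printed on the array (Tfcp2l1 is written there under its older name Tcfcp2l1), and they are 10 of the 27666 genes on it, covered by 19 of its 41174 probes. RNA came from Dazl-GFP, a re-derived transgenic line of mouse embryonic stem (ES) cells, so all groups share the transgene. The line was kept on irradiated feeder fibroblasts in medium with serum, leukemia inhibitory factor (LIF) and 2i, the pair PD0325901, which inhibits the kinase MEK, and CHIR99021, which inhibits the kinase GSK3β. The study asked which RNA species DAZL, a germ-cell RNA-binding protein, binds. It used native RNA immunoprecipitation (IP), in which a protein is pulled from an uncrosslinked lysate together with its RNA. The groups were 3 GFP IPs with an antibody against GFP, 2 PABP1 IPs with an antibody against the poly(A) binding protein PABP1, and 3 inputs of total RNA without antibody. An IP with a control antibody was not analysed here, and the labels do not say whether GFP is fused to DAZL.

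In the naive state, which resembles the epiblast before implantation, a set of transcription factors holds the core factors OCT4, SOX2 and NANOG in an active, self-sustaining circuit. LIF acts through STAT3 on genes such as Klf4, Gbx2 and Tfcp2l1, while GSK3 inhibition relieves repression by TCF7L1 of genes such as Esrrb, and MEK inhibition blocks the FGF signal that drives cells out of the state. These mRNAs were therefore measured here in a condition that holds cells in the naive state, though their input levels differed widely. The comparison concerns how much of each was recovered with each antibody.

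All values are log2 signals over the 75th percentile of the array, so 0 is the level of that percentile and a difference of 1 is a doubling. Each difference is relative: it sets how large a part of the RNA a gene made up in one group beside the other. Of the 43379 spots per array, 41.5% to 52.6% gave signal well above background. Correlations between arrays across genes were 0.975 to 0.993 within groups and 0.857 to 0.933 between groups. The arrays lay on 2 slides: slide 1 held GFP IP 2, PABP1 IP 1 and inputs 1 and 2, and slide 2 held GFP IPs 1 and 3, PABP1 IP 2 and input 3. The Dazl transcript was 14.1-fold higher with the GFP antibody than in input (3.81, limma adjusted p = 2.16e-05). A second Dazl probe read 2.71 there. In PABP1 IP over input Dazl was lower, at -1.70 (adjusted p = 0.000625). Its second probe, at -0.60, did not pass there (adjusted p = 0.104 over all tested probes). Pabpc1, which encodes PABP1, did not pass in any comparison. The median of all 14670 tested genes was at -0.52 in GFP IP over input. It was at 0.24 in PABP1 IP over input, and the direct comparison of GFP IP over PABP1 IP had it at -0.68. Differences relative to that median gene are given where they matter. All 10 members had a probe well above background on every array, and no member spot was saturated. Of their 19 probes 15 passed the filter on dim signal.

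The members did not behave as one group. Of the 10, 3 rose in GFP IP over input (Klf5, Gbx2 and Zfp42), 1 fell (Nr5a2) and 6 did not pass. Among all tested genes 21.2% were called higher and 43.5% lower. With PABP1, 3 rose over input (Gbx2, Nr0b1 and, by 1 of its 2 probes, Klf2, whose other probe was 13.4-fold lower) and 5 fell (Nr5a2, Tfcp2l1, Klf5, Tbx3 and Klf4), against 34.3% of all tested genes called higher and 25.3% lower. In GFP IP over PABP1 IP 6 rose (Klf5, Tfcp2l1, Nr5a2, Tbx3, Zfp42 and Klf4) and 1 fell (Nr0b1), against 23.6% called higher and 47.6% lower. The members' median difference was -0.07, -0.72 and 0.74 in these 3 comparisons, which is 0.44 above, 0.96 below and 1.42 above the median gene. These medians depended on the processing. They were 0.43, -1.19 and 1.96 with quantile normalization (0.71, -1.32 and 2.30 relative to the median gene) and -0.10, -0.41 and 0.33 under normexp background correction (0.10, -0.38 and 0.48). Averaging all probes per gene put the PABP1 median at -1.36, with Klf2 at -1.45 and Esrrb at -2.05. That average took in the lower Klf2 probe and an Esrrb probe that passed the filter on dim signal only through the inputs. The comparisons share arrays, so they are not independent of each other. With normexp, applied to the raw spot and background signals, fewer calls passed. Those left were Nr5a2 (-2.18, adjusted p = 0.0134) and Tfcp2l1 (-2.20, adjusted p = 0.0473) in PABP1 IP over input, and Klf5 (2.58, adjusted p = 0.00773), Tfcp2l1 (1.94, adjusted p = 0.0483) and Nr5a2 (1.40, adjusted p = 0.0395) between the IPs. No member passed in GFP IP over input, where Klf5 was at 1.47 (adjusted p = 0.0726), Zfp42 at 1.07 (adjusted p = 0.148), Gbx2 at 0.68 (adjusted p = 0.0963) and Nr5a2 at -0.78 (adjusted p = 0.228).

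**Figure D1:**
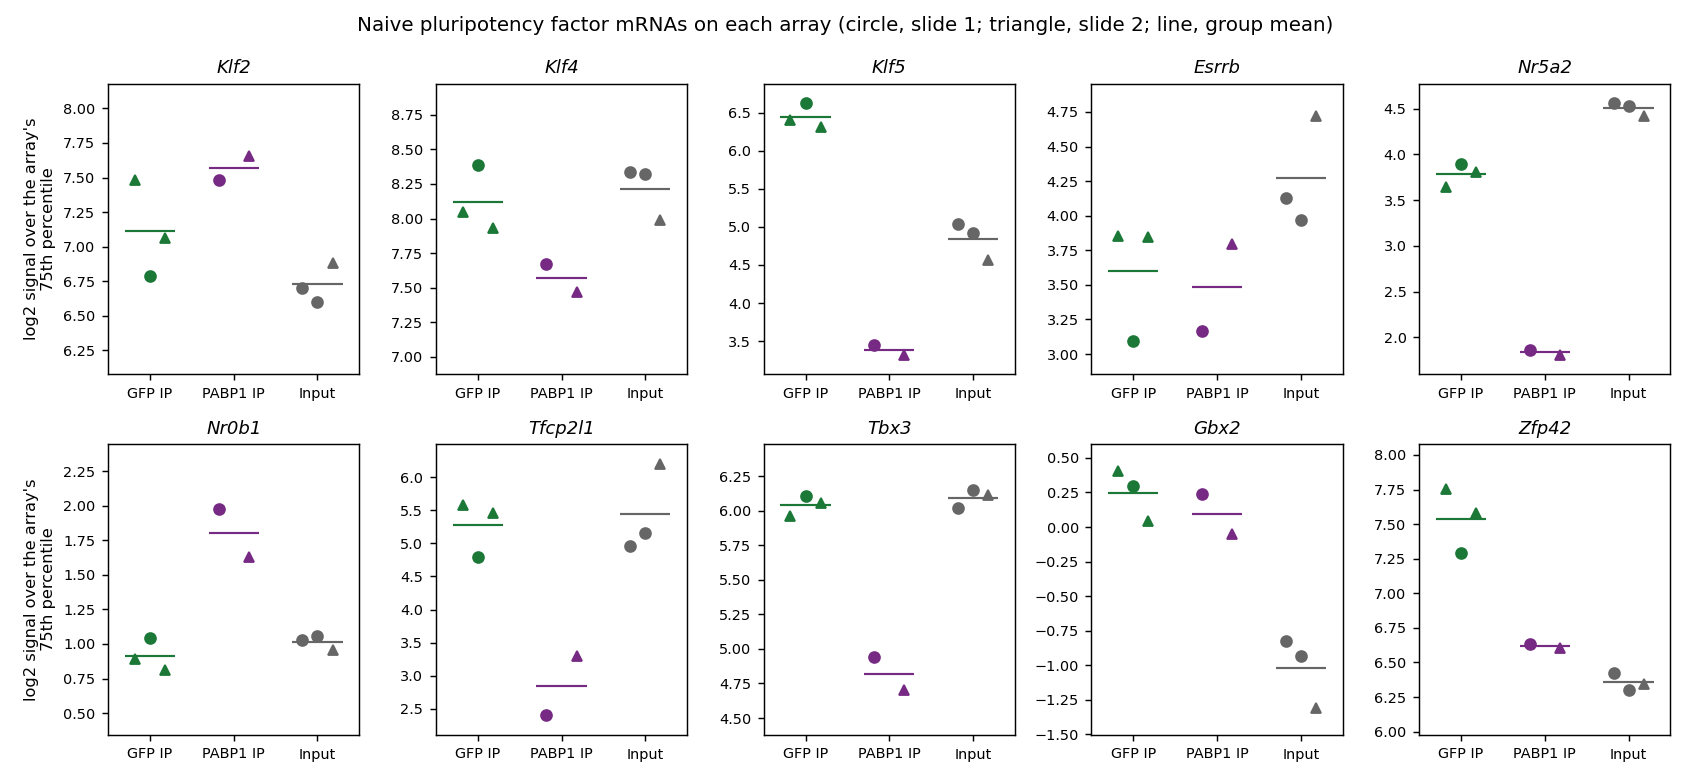
Scaled log2 signal (vertical axis, 0 at the 75th percentile of each array) of the probe that stands for each of the 10 genes, on each GFP IP, PABP1 IP and input array. Points are arrays, shaped by slide, and lines are group means. Klf5 lies between 6.31 and 6.63 in the GFP IPs, 3.32 and 3.45 in the PABP1 IPs and 4.56 and 5.04 in the inputs.

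By the probe that stands for each gene, Klf5 had the largest difference between the IPs among the 10 genes. Another Tfcp2l1 probe read higher there, at 3.56. KLF2, KLF4 and KLF5 are Krüppel-like zinc finger factors that share many targets in ES cells and can partly stand in for one another. Klf5 read 6.41, 6.63 and 6.31 in the GFP IPs, 3.45 and 3.32 in the PABP1 IPs, and 5.04, 4.92 and 4.56 in the inputs. The 3 groups did not overlap, with every GFP IP above every input and every PABP1 IP below. Over all tested genes, groups did not overlap for 23% (higher) and 46.3% (lower) in GFP IP over input. The shares were 40.9% and 29.9% in PABP1 IP over input, and 26.9% and 53.8% in GFP IP over PABP1 IP. Groups that did not overlap were thus common on these arrays, here and for the genes below. Klf5 was 3.05-fold higher in GFP IP than in input (1.61 ± 0.16, SE, adjusted p = 0.000159) and 2.74-fold lower in PABP1 IP than in input (-1.45 ± 0.18, adjusted p = 0.000409). Between the IPs it was 8.33-fold higher with GFP (3.06 ± 0.18, adjusted p = 1.30e-05), rank 236 of 14670 genes. On slides 1 and 2 alone the difference over input was 1.65 and 1.80 for the GFP IP (1.70 with slide as a block) and -1.53 and -1.24 for the PABP1 IP (-1.40). Relative to the median gene, Klf5 was at 2.12 in the GFP IP and -1.69 in the PABP1 IP. A second Klf5 probe was well above background on 1 input array alone and was not tested.

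Klf4, a target of STAT3 and one of the original reprogramming factors, differed between the IPs by less. It read 8.05, 8.39 and 7.93 in the GFP IPs, 7.67 and 7.47 in the PABP1 IPs, and 8.34, 8.32 and 7.99 in the inputs. GFP IPs and inputs overlapped, while both PABP1 IPs lay below every other array. The GFP IP over input difference of -0.09 ± 0.17 did not pass (adjusted p = 0.638, 95% interval -0.49 to 0.30). Klf4 fell by 0.65 in PABP1 IP over input (SE 0.19, adjusted p = 0.0203), and in GFP IP over PABP1 IP it rose by 0.55 ± 0.19 (adjusted p = 0.0318). These last calls were near the threshold. The PABP1 call ended without input 1 (-0.59, adjusted p = 0.0566), input 2 (-0.60, adjusted p = 0.0633) or PABP1 IP 2 (-0.55, adjusted p = 0.115), and with slide 2 by itself (-0.52, adjusted p = 0.108). The call between the IPs ended without PABP1 IP 1 (0.66, adjusted p = 0.0620), PABP1 IP 2 (0.45, adjusted p = 0.149), GFP IP 1 (0.59, adjusted p = 0.0536) or GFP IP 2 (0.42, adjusted p = 0.0755), and with slide 2 by itself (0.53, adjusted p = 0.0627). With slide as a block both passed (-0.59, adjusted p = 0.00119, and 0.61, adjusted p = 0.000876). With quantile normalization Klf4 was higher in GFP IP than in input, at 0.56 (adjusted p = 0.00216).

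Klf2 gave opposite answers with its probes. KLF2 is the Krüppel-like factor whose protein is stabilised when MEK is inhibited. Probe A_51_P144264, which stands for the gene by the rule of the highest mean, read 7.48, 6.79 and 7.06 in the GFP IPs, 7.48 and 7.66 in the PABP1 IPs, and 6.70, 6.60 and 6.88 in the inputs. Its PABP1 IPs lay above every input, and its GFP IPs overlapped both other groups. It was 1.80-fold higher in PABP1 IP than in input (0.84 ± 0.22, adjusted p = 0.0119), and 0.38 ± 0.19 in GFP IP over input did not pass (adjusted p = 0.116). The PABP1 call ended without PABP1 IP 2 (0.76, adjusted p = 0.0703) and with slide 2 by itself (0.78, adjusted p = 0.0890). With quantile normalization it was at 0.06 in PABP1 IP over input (adjusted p = 0.835) and at 0.95 in GFP IP over input (adjusted p = 0.00587). The GFP value also passed without GFP IP 2 (0.55, adjusted p = 0.0371), and at 0.55 (adjusted p = 0.0412) when scaled over detected probes.

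Probe A_52_P442031, which the array assigns to the same Klf2 transcript, read 4.57, 4.64 and 4.32 in the GFP IPs, 3.47 and 3.07 in the PABP1 IPs, and 7.13, 7.15 and 6.77 in the inputs. All 8 values were well above background, and the 3 groups were far apart. By this probe the mRNA was 5.69-fold lower in GFP IP than in input (-2.51 ± 0.18, adjusted p = 4.36e-05 over 20625 tested probes) and 13.4-fold lower in PABP1 IP than in input (-3.75 ± 0.20, adjusted p = 1.82e-05). Between the IPs it was 2.36-fold higher with GFP (1.24 ± 0.20, adjusted p = 0.00102), whereas A_51_P144264 was at -0.46 ± 0.22 (adjusted p = 0.0905). That value passed with slide as a block (-0.51, adjusted p = 0.0186) and on slide 1 by itself (-0.70, adjusted p = 0.0404), and with quantile normalization it was at 0.89 (adjusted p = 0.0117). Over all tested probes 24.2% were called higher and 39.1% lower in GFP IP over input, and 34.5% higher and 25.9% lower in PABP1 IP over input. In GFP IP over PABP1 IP 26.6% of probes were higher and 43.7% lower. Klf2 therefore has no settled direction in these data. Where the probes lie in the transcript was not analysed here.

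**Figure D2:**
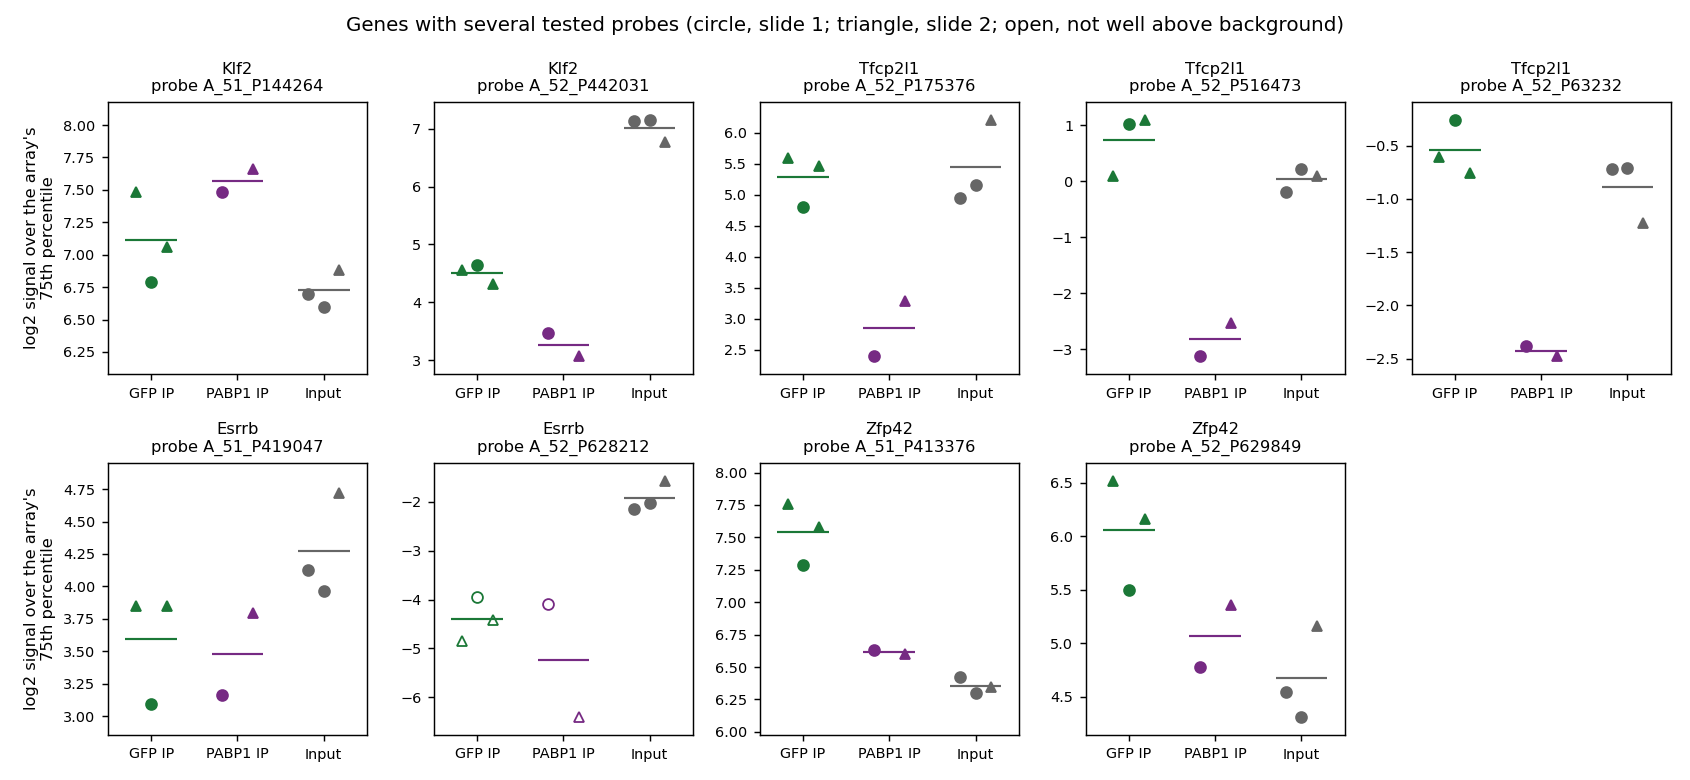
Scaled log2 signal (0 at the 75th percentile of each array) for the 9 tested probes of Klf2, Tfcp2l1, Esrrb and Zfp42 on each GFP IP, PABP1 IP and input array. Points are arrays, shaped by slide and open where the spot was not well above background, and lines are group means. The Klf2 probes differ in direction, whereas the 3 Tfcp2l1 probes each have their lowest values in the PABP1 IPs.

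The nuclear receptor genes of the network parted in the PABP1 IP. Nr5a2 encodes LRH-1, which binds regulatory regions of Pou5f1. It read 3.65, 3.89 and 3.81 in the GFP IPs, 1.86 and 1.81 in the PABP1 IPs, and 4.56, 4.53 and 4.42 in the inputs. The 3 groups did not overlap, and replicates lay close together. Nr5a2 was 1.65-fold lower in GFP IP than in input (-0.72 ± 0.11, adjusted p = 0.00119) and 6.34-fold lower in PABP1 IP than in input (-2.67 ± 0.13, adjusted p = 1.72e-05), rank 400 from the bottom of 14670. Relative to the median gene the GFP difference was -0.21 and the PABP1 difference -2.91. Between the IPs Nr5a2 was 3.85-fold higher with GFP (1.94 ± 0.13, adjusted p = 1.70e-05). By slide, 1 then 2, it was at -0.65 and -0.69 in GFP IP over input, and at -2.68 and -2.61 in PABP1 IP over input.

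Nr0b1 encodes DAX1, a receptor without the usual DNA-binding domain that interacts with OCT4. It read 0.89, 1.04 and 0.81 in the GFP IPs, 1.98 and 1.63 in the PABP1 IPs, and 1.03, 1.06 and 0.95 in the inputs. Both PABP1 IPs stood above all other arrays, and the GFP IPs overlapped the inputs. Nr0b1 was 1.73-fold higher in PABP1 IP than in input (0.79 ± 0.15, adjusted p = 0.00292) and at -0.10 ± 0.13 in GFP IP over input (adjusted p = 0.524, 95% interval -0.41 to 0.21). It was the one member that fell between the IPs, 1.85-fold lower with GFP than with PABP1 (-0.89 ± 0.15, adjusted p = 0.00130), or -0.21 relative to the median gene. Within slides 1 and 2 its PABP1 difference over input was 0.93 and 0.68, and on slide 2 alone the call ended (adjusted p = 0.0573).

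Esrrb encodes an orphan receptor and is a main target of GSK3 inhibition in ES cells. It read 3.85, 3.09 and 3.85 in the GFP IPs, 3.17 and 3.80 in the PABP1 IPs, and 4.13, 3.97 and 4.72 in the inputs. Every IP array lay below every input, but in each group the slide 2 arrays were higher than those of slide 1. The differences of -0.67 ± 0.30 in GFP IP over input (adjusted p = 0.0873) and -0.79 ± 0.34 in PABP1 IP over input (adjusted p = 0.0820) did not pass. With slide as a block both passed, at -0.90 (adjusted p = 0.000125) and -0.90 (adjusted p = 0.000166). On slides 1 and 2 alone they were -0.95 and -0.87 for the GFP IP and -0.88 and -0.92 for the PABP1 IP. A second Esrrb probe was well above background on all 3 inputs and on 0 IP arrays. By this probe alone the signal was at least 4.23-fold lower in GFP IP than in input. In PABP1 IP it was at least 4.28-fold lower than in input. The first probe read 1.59-fold lower with GFP and 1.73-fold lower with PABP1, differences that did not pass. The second probe passed the filter on dim signal only through the inputs, where it is high, so the bounds are a description without a test. Whether the probes differ in size was not tested. Between the IPs the first probe gave 0.12 ± 0.34 (adjusted p = 0.768, 95% interval -0.69 to 0.92).

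Tfcp2l1, a CP2-family factor downstream of STAT3, was poorly recovered with PABP1. Its probe A_52_P175376 read 5.58, 4.80 and 5.45 in the GFP IPs, 2.40 and 3.29 in the PABP1 IPs, and 4.95, 5.16 and 6.20 in the inputs. The PABP1 IPs lay below all other arrays, while GFP IPs and inputs overlapped. Tfcp2l1 was 6.03-fold lower in PABP1 IP than in input (-2.59 ± 0.45, adjusted p = 0.00205) and 5.39-fold higher in GFP IP than in PABP1 IP (2.43 ± 0.45, adjusted p = 0.00222). Over input it was at -0.16 ± 0.40 in the GFP IP (adjusted p = 0.739), which became -0.47 with slide as a block (adjusted p = 0.0132), close to the median gene of that fit at -0.46. Within slides 1 and 2 it was at -0.26 and -0.68 in GFP IP over input, and at -2.66 and -2.91 in PABP1 IP over input.

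The other tested Tfcp2l1 probes went the same way in the PABP1 IP. A_52_P516473 was at -2.86 ± 0.34 and A_52_P63232 at -1.54 ± 0.22 in PABP1 IP over input (adjusted p = 0.000299 and 0.000732 over all tested probes). In GFP IP over PABP1 IP they were at 3.56 ± 0.34 and 1.89 ± 0.22 (adjusted p = 8.16e-05 and 0.000214). Over input they gave 0.70 ± 0.30 and 0.35 ± 0.20 in the GFP IP, which did not pass (adjusted p = 0.0766 and 0.155). A further probe was well above background on 2 GFP IPs and 1 input and was not tested. All 3 tested probes thus placed Tfcp2l1 lower in PABP1 IP than in the other groups, by amounts that differed between probes.

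Tbx3 encodes a T-box factor that helps sustain Nanog expression. It read 5.96, 6.10 and 6.05 in the GFP IPs, 4.94 and 4.71 in the PABP1 IPs, and 6.02, 6.15 and 6.11 in the inputs. GFP IPs and inputs overlapped within a narrow range, and both PABP1 IPs lay more than a log2 unit lower. Tbx3 was at -0.06 ± 0.11 in GFP IP over input (adjusted p = 0.684, 95% interval -0.33 to 0.21). It was 2.42-fold lower in PABP1 IP than in input (-1.27 ± 0.13, adjusted p = 0.000156) and 2.32-fold higher in GFP IP than in PABP1 IP (1.22 ± 0.13, adjusted p = 0.000129). By slide, 1 then 2, the PABP1 difference over input was -1.15 and -1.40. A second Tbx3 probe was well above background on 0 arrays.

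Gbx2, a homeobox gene downstream of STAT3, was above input with both antibodies. It read 0.40, 0.30 and 0.05 in the GFP IPs, 0.24 and -0.05 in the PABP1 IPs, and -0.83, -0.93 and -1.31 in the inputs. The IPs overlapped each other, and every IP array was above every input. Gbx2 was 2.41-fold higher in GFP IP than in input (1.27 ± 0.18, adjusted p = 0.000675) and 2.17-fold higher in PABP1 IP than in input (1.12 ± 0.20, adjusted p = 0.00218). Relative to the median gene these were 1.79 and 0.87. Between the IPs its difference of 0.15 ± 0.20 did not pass (adjusted p = 0.498, 95% interval -0.31 to 0.62). It passed, at 0.55 (adjusted p = 0.0211), when arrays were scaled to the 75th percentile over the probes above background on all of them. Within slides 1 and 2 it was at 1.17 and 1.53 in GFP IP over input, and at 1.12 and 1.26 in PABP1 IP over input. A second Gbx2 probe was well above background on 0 arrays.

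Zfp42 encodes REX1, a zinc finger protein widely used as a marker of the naive state. Its probe A_51_P413376 read 7.75, 7.29 and 7.58 in the GFP IPs, 6.63 and 6.60 in the PABP1 IPs, and 6.43, 6.30 and 6.35 in the inputs. The GFP IPs stood above every other array, and the PABP1 IPs lay slightly above the inputs. Zfp42 was 2.27-fold higher in GFP IP than in input (1.18 ± 0.14, adjusted p = 0.000333) and 1.90-fold higher in GFP IP than in PABP1 IP (0.92 ± 0.16, adjusted p = 0.00145). It was at 0.26 ± 0.16 in PABP1 IP over input (adjusted p = 0.195), next to the median gene at 0.24. Within slides 1 and 2 the GFP difference over input was 0.93 and 1.32. Its second probe gave 1.39 ± 0.33 in GFP IP over input (adjusted p = 0.00874 over all tested probes), 0.40 ± 0.37 in PABP1 IP over input (adjusted p = 0.393) and 0.99 ± 0.37 in GFP IP over PABP1 IP (adjusted p = 0.0457).

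**Figure D3:**
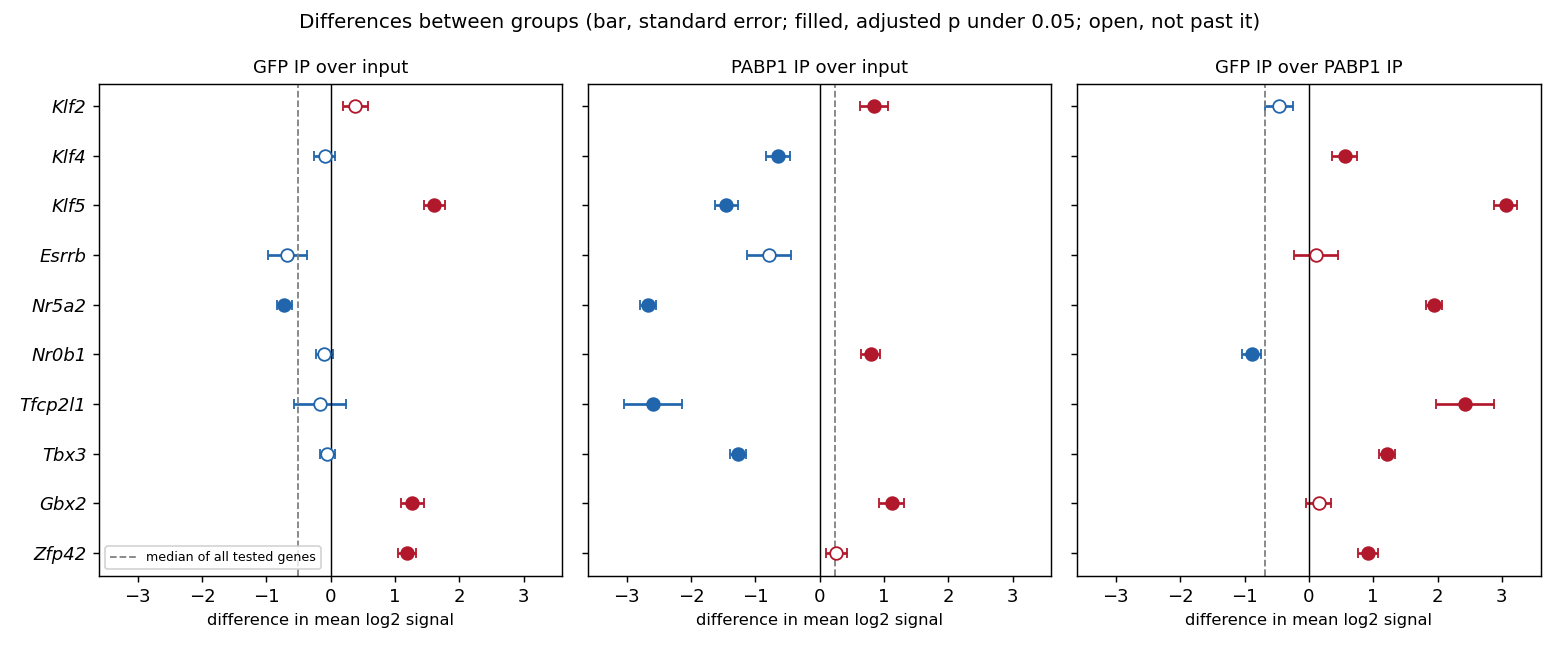
Differences in mean log2 signal (horizontal axis) for the 10 genes, with panels for GFP IP over input, PABP1 IP over input, then GFP IP over PABP1 IP. Points are limma estimates with standard errors, filled where the adjusted p was under 0.05, and the dashed line is the median of all tested genes. Klf5 lies at 1.61 in the first panel and -1.45 in the second, on opposite sides of 0.

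The 2 comparisons with input share the input arrays, so the members' values are given side by side without a correlation. Klf5 was above input with GFP and below it with PABP1. Gbx2 was above input with both, at 1.27 with GFP and 1.12 with PABP1, and Nr5a2 was below it with both, at -0.72 and -2.67. Tbx3, Tfcp2l1 and Klf4 passed below input with PABP1 alone, and Nr0b1 and the A_51_P144264 probe of Klf2 passed above input with PABP1 alone. Zfp42 passed with GFP alone. Of these, the difference between the IPs passed for each gene named except Gbx2 and Klf2. Of 14670 tested genes, Klf5 ranked 1055 from the top in GFP IP over input, Gbx2 1516 and Zfp42 1653. Nr5a2 ranked 400 in PABP1 IP over input, Tfcp2l1 430, Klf5 1512 and Tbx3 1835 from the bottom.

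**Figure D4:**
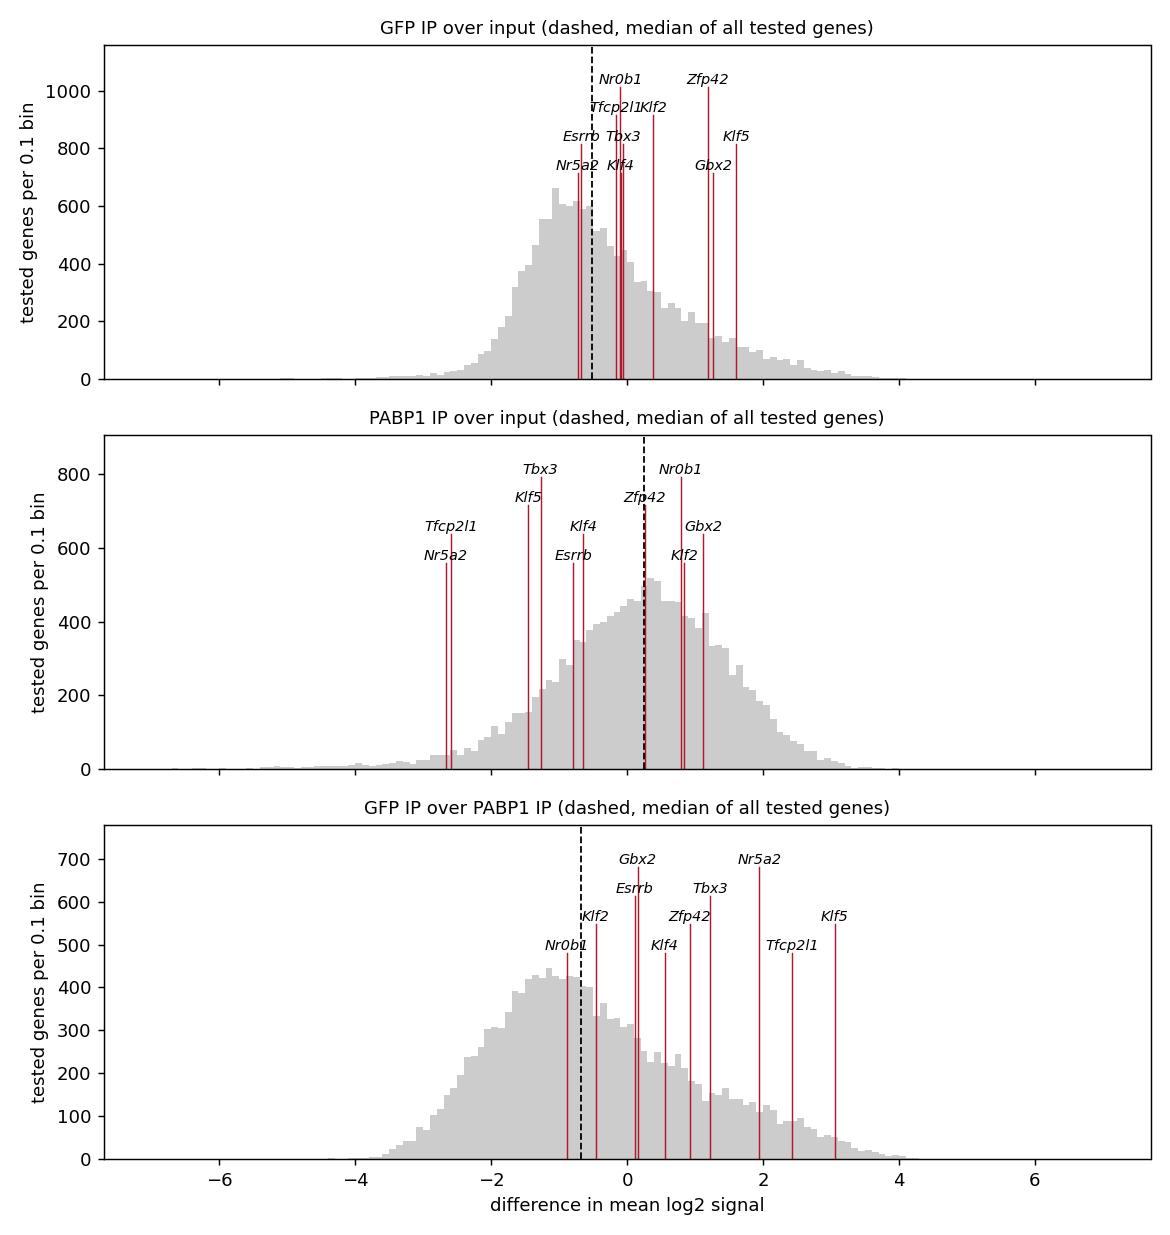
Histograms of the difference in mean log2 signal over all 14670 tested genes (vertical axis, genes per bin) in each comparison, with red lines at the 10 members and a dashed line at the median gene. In GFP IP over PABP1 IP the median gene is at -0.68, and 9 of the 10 members lie to its right.

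The core and signal-linked regulators of the network were read beside the members. Of the 9 described (Pou5f1, Sox2, Nanog, Sall4, Stat3, Tcf7l1, Ctnnb1, Prdm14 and Zfp281) 8 were tested. Of these 4 rose and 1 fell in GFP IP over input, with a median of 0.78 against -0.52 for all tested genes. With PABP1, 2 rose and 3 fell over input, with a median of -0.42 against 0.24. Over all tested genes 21.2% were called higher and 43.5% lower with GFP, and 34.3% and 25.3% with PABP1. The zinc finger factor gene Sall4 (2.13 ± 0.23, adjusted p = 0.000198) and Sox2, the partner of OCT4 (2.03 ± 0.12, adjusted p = 2.59e-05), rose most in GFP IP over input, although a second Sall4 probe read 0.08. Pou5f1, which encodes OCT4, was the one that fell (-0.66 ± 0.22, adjusted p = 0.0341), a call lost after centring on the median tested gene (-0.56, adjusted p = 0.0556). Pou5f1 (1.39 ± 0.25) and Nanog (0.74 ± 0.12) rose in PABP1 IP over input, calls lost under normexp (Pou5f1 adjusted p = 0.0740, Nanog 0.201), and that of Nanog also within slide 2 (adjusted p = 0.0672). The repressor gene Zfp281 (-2.39 ± 0.24) and Stat3 (-2.07 ± 0.18), the transducer of LIF, fell most.

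Marker genes of the naive state that are not members moved both ways. Of 15 listed 14 were tested. With GFP, 7 rose and 4 fell over input (median 0.24), and in PABP1 IP over input 5 rose and 3 fell (median 0.58). The shares over all tested genes were 21.2% higher and 43.5% lower with GFP (median -0.52), and 34.3% and 25.3% with PABP1 (median 0.24). Pecam1, a surface adhesion gene, was at 2.30 ± 0.13 in GFP IP over input and -0.88 ± 0.14 in PABP1 IP over input. Dppa3, which encodes the maternal factor STELLA, rose in GFP IP over input (1.36 ± 0.21), and under normexp it was at 1.07 (adjusted p = 0.117). The imprint-protecting gene Zfp57 fell with both antibodies (-2.27 ± 0.19 with GFP and -1.09 ± 0.22 with PABP1). Under normexp 2 of the markers were higher and 0 lower in PABP1 IP over input, so the PABP1 calls of Pecam1 and Zfp57 ended. Dppa5a fell in GFP IP over input (-1.32 ± 0.40) but stood at 0.02 with quantile normalization (adjusted p = 0.915). Ooep, an oocyte-expressed gene (2.87 ± 0.27), and Tdgf1, which encodes the NODAL co-receptor Cripto (1.47 ± 0.17), rose most in PABP1 IP over input.

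Genes of the formative and primed states, which follow the naive state, were listed too. Of 11, all on the array, 7 were tested and 4 were too dim. In GFP IP over input 3 rose and 1 fell (median 0.26), against 1 and 2 in PABP1 IP over input (median 0.03). Of all tested genes, 21.2% were higher and 43.5% lower with GFP (median -0.52), and 34.3% and 25.3% with PABP1 (median 0.24). Lef1, a WNT effector gene, was at 2.85 ± 0.22 in GFP IP over input, with 2 of 3 inputs well above background, and its second probe read 1.15. Pou3f1, an early neural and primed-state factor gene, was at 1.39 ± 0.19 in GFP IP over input. Otx2, which drives exit from the naive state, fell by 0.35 (SE 0.12, adjusted p = 0.0413), a call that ended after centring (-0.25, adjusted p = 0.121), and within either slide (adjusted p = 0.274 on slide 1 and 0.0645 on slide 2). Over input, Sall2 (-1.37 ± 0.16, with 1 of 2 PABP1 IPs well above background) and the DNA methyltransferase gene Dnmt3b (-0.53 ± 0.14) fell in the PABP1 IP. Both calls ended under normexp (Sall2 at -0.58, adjusted p = 0.270, and Dnmt3b at -0.31, adjusted p = 0.725), and that of Dnmt3b also within slide 1 (adjusted p = 0.0792) and slide 2 (adjusted p = 0.102). The mesoderm gene T is the 1 gene counted as higher in the PABP1 IP. It was well above background on 2 PABP1 IPs, 0 GFP IPs and 0 inputs, so it passed the filter only through the group where it is high, and its bound of at least 1.17-fold higher in PABP1 IP than in input is a description. Under normexp it was at -0.19. The list's PABP1 median was -0.01 after centring and -0.19 under normexp.

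Other genes of the Krüppel-like family were set beside Klf2, Klf4 and Klf5. Of 14 listed 11 were tested. With GFP, 6 rose over input and 0 fell by limma (median 0.46), with 0 lower at an unadjusted p under 0.05 too. In PABP1 IP over input 4 rose and 2 fell (median -0.10). All tested genes gave 21.2% higher and 43.5% lower with GFP (median -0.52), and 34.3% and 25.3% with PABP1 (median 0.24). The TGF-beta inducible genes Klf11 (2.70 ± 0.22, adjusted p = 7.49e-05) and Klf10 (2.60 ± 0.14, adjusted p = 2.10e-05) rose most in GFP IP over input, above Klf5 at 1.61, but a second Klf11 probe read -0.30. With PABP1, Klf3 (2.02 ± 0.21) and Klf1 (1.66 ± 0.39, with 2 of 3 inputs well above background) rose most, while Klf7 (-1.59 ± 0.15) and Klf13 (-0.90 ± 0.14) fell. The calls of Klf1 (0.36, adjusted p = 0.652) and Klf13 (-0.59, adjusted p = 0.477) ended under normexp, which put the list's PABP1 median at 0.08. A second Klf3 probe read 2.87 and a second Klf7 probe -2.86 in PABP1 IP over input. Under normexp the counts higher and lower in GFP IP over input were 2 and 0 of the core list, 1 and 1 of the naive markers, 1 and 0 of the primed list and 2 and 0 of the Krüppel-like list.

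The ES markers Pou5f1, Sox2, Nanog, Utf1 and Dppa5a were well above background on all 8 arrays. Their summed linear signal, in units of the 75th percentile, was 995 to 1464 in the GFP IPs, 1703 to 3581 in the PABP1 IPs and 1827 to 3738 in the inputs. Slide 1 gave 1464 in GFP IP 2, 3581 in PABP1 IP 1, and 3738 and 3556 in inputs 1 and 2. Slide 2 gave 1232 and 995 in GFP IPs 1 and 3, 1703 in PABP1 IP 2 and 1827 in input 3. Dppa5a dominated this sum, with a mean log2 signal of 11.45 in the inputs, where Pou5f1 was next at 6.15. By gene, 3 of the 5 rose (Sox2, Nanog and Utf1) and 2 fell (Pou5f1 and Dppa5a) in GFP IP over input. Among all tested genes 21.2% were called higher and 43.5% lower. Feeder fibroblast markers were present too, and their summed signal was lowest in the GFP IPs. Of 12 markers 0 rose and 9 fell in GFP IP over input by limma, with 0 higher at an unadjusted p under 0.05, against 43.5% of all tested genes called lower. With PABP1, 4 rose and 2 fell over input, against 34.3% of all tested genes called higher and 25.3% lower. Under normexp the counts higher and lower were 0 and 1 in GFP IP over input and 0 and 1 in PABP1 IP over input, and on slide 1 by itself 0 and 2 in GFP IP over input and 1 and 2 in PABP1 IP over input. The feeder sum was 59.5 to 102.1 in the GFP IPs, 216.5 to 221.2 in the PABP1 IPs and 150.7 to 209.5 in the inputs, with 11 or 12 of the 12 well above background on every array. The summed signal of 8 primitive endoderm markers was 0.909 to 1.14 in the GFP IPs, 1.17 to 1.50 in the PABP1 IPs and 0.827 to 1.03 in the inputs. Of the 8, only 3 to 5 were well above background on the GFP IPs, 5 to 6 on the PABP1 IPs and 1 to 4 on the inputs. These sums therefore hold signal near background and are not read as levels. Sox17, Sox7 and Pdgfra were below the filter on dim signal. The part of feeder RNA in the members' differences was not tested. Marker levels here are parts of the RNA in each IP or input, so they measure neither cell numbers nor RNA per cell.

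The authors' deposited table of group means was made from the same arrays and is no independent check. In the authors' deposited table Klf5 was at log2 2.18 in GFP IP over input, -1.37 in PABP1 IP over input and 3.55 between GFP IP and PABP1 IP. For Klf4, Tbx3, Nr0b1 and Nr5a2 the GFP IP over input values there were 0.52, 0.44, 0.44 and -0.25. Those found here were lower, at -0.09, -0.06, -0.10 and -0.72. Both Klf2 entries of the authors' deposited table were also apart, at 1.03 and -1.89 in GFP IP over input and at 0.89 and -3.68 in PABP1 IP over input. Its columns had medians of 1.02 for GFP IP, 1.02 for PABP1 IP and 0.995 for input, and their scaling method is not known here.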

How the data were processed

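Native RNA IP samples of 1 mouse ES cell line were measured on 8 one-colour Cy3 arrays. The authors' intensity values came, per the file headers, from Agilent Feature Extraction 9.1.3.1 (protocol GE1-v5_95_Feb07), with spatial detrending and surrogate values for dim spots switched on. The authors' deposited files also hold flags, which are other values, for signal well above background, saturation and outlier spots, and 1 table gives group mean intensities. No count data exist for arrays, and the number of arrays limits the precision.

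Processed signals were taken to log2, less the array's 75th percentile over its 43379 spots with probes. Replicate spots were averaged, and 30 of 41174 probes were left out for outlier spots. Genes were named through a RefSeq table of assembly GRCm38.p6 by accession (10725 tested genes), symbol (1450) or older synonym (780), and 1715 kept the array's name. The probe with the highest mean stood for a gene. Genes with signal well above background throughout 1 group or more entered limma 3.58.1 (R 4.3.3), in 1 fit over all 8 arrays, and again with every probe as a feature (20625 probes). The two-sided p-values carry a Benjamini-Hochberg adjustment, and 0.05 is the threshold. Since no label says that replicates were separate cultures, p-values reflect only how these arrays differ, which may be technical. The fit was also run on simulated data with independent noise, where few genes were shifted and in the GFP IPs alone. On these arrays many genes were called, so that setting cannot show how the fit performs here. Intervals are 95% intervals from the same fit.

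A fold for a probe not above background in a group is a bound against the dimmest probes above background there. All members and probes were named, and of each gene list the 2 largest significant changes in each direction over input. An item of the core list is not reported here and is left out of its counts. The members, lists and tests were chosen with earlier results of these data known. Alternatives were centring, quantile normalization, a percentile over detected probes, normexp background correction (offset 50), no filter, probe means, slide as a block or alone, the replicate number as a block, and each array left out. Same-numbered GFP IPs and inputs deviated together with correlations of -0.29, 0.52 and 0.53. GFP IP 1 and input 1 lay on different slides, while numbers 2 and 3 each shared a slide. Slide and number cannot be told apart in this check, so it cannot decide whether the numbers pair arrays. They were not taken to do so. Matplotlib 3.10.9 (Python 3.11.15) drew the figures.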

Additional observations from a re-analysis of the deposited data

How the results depend on the processing

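Klf5, Gbx2, Zfp42, Nr5a2, Tfcp2l1, Tbx3 and Nr0b1 kept the direction of each call under every alternative run, with calls lost mainly under normexp background correction. Under normexp, members higher and lower were 0 and 0 in GFP IP over input, 0 and 2 (Tfcp2l1 and Nr5a2) in PABP1 IP over input, and 3 (Klf5, Tfcp2l1 and Nr5a2) and 0 between the IPs. Over all genes the counts were then 581 and 962, 1643 and 639, and 1093 and 3103, against 3109 and 6380, 5035 and 3711, and 3459 and 6983. The cause was not tested. In GFP IP over input 5 members were higher with quantile normalization. Members lower there numbered 3 with probe means, 3 with slide as a block, 2 on slide 1, 3 on slide 2 and 2 with the probe highest in the inputs, an alternative chosen after seeing the data. The count with probe means holds Esrrb (-1.58), whose average took in the probe that passed the filter only through the inputs. On slide 2, 1 member was higher in PABP1 IP over input. Between GFP IP and PABP1 IP, 2 were lower with slide as a block and on slide 1.

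Klf2 turned with the probe and the scaling. With probe means it read -1.06, -1.45 and 0.39 in the 3 comparisons, and with the probe highest in the inputs -2.51, -3.75 and 1.24. With quantile normalization it read 0.89 in GFP IP over PABP1 IP. With the same normalization Klf4 read 0.56 in GFP IP over input and Zfp42 -0.44 in PABP1 IP over input. Without 1 array, members higher and lower were 3 to 4 and 1 to 1 in GFP IP over input, 2 to 3 and 4 to 5 in PABP1 IP over input, and 5 to 6 and 1 to 2 between the IPs, the last 2 without GFP IP replicate 1, when Klf2 passed (-0.65). With the replicate block the member counts stayed at 3 and 1, 3 and 5, and 6 and 1, and it changed no member's call. Of all calls, the higher ones made up 57.6% for PABP1 IP over input, 33.1% between the IPs, or 47.6% and 46.1% with the percentile over detected probes and 72.0% and 26.0% under normexp. Signals near background limit the dim probes.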
